A study of Mus musculus with 15 samples.

Results

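The 42 cell cycle and proliferation genes described here comprise 15 genes of DNA replication and 27 genes of mitosis and cell division. They were selected by symbol rather than by a threshold on their values, although with earlier results of these data known, from the 55487 genes listed in a table of estimated counts for conjunctival tissue of mice with skin inflammation–induced conjunctivitis. Each of the 42 symbols matched 1 gene, and all 42 reached 10 counts in 5 or more of the 15 libraries, as did 19006 genes, so none was lost to the filter on low counts. The study asked how the transcriptome of the conjunctiva differs after ocular challenge with the sensitizing antigen and after blockade of IL-4Rα, the receptor chain shared by IL-4 and IL-13.

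All mice were WT females of 9 to 12 weeks (strain written BALC/c in the labels and BALB/c in the methods), and all were sensitized on the skin with OVA together with MC903, the vitamin D analog calcipotriol, given for 7 days at 2.5 nmol per day. The PBS group was then challenged in the eye with PBS, and the labels give no antibody for it. The isotype group and the anti–IL-4Rα group were both challenged in the eye with OVA (250 μg per drop) on days 18 to 24, and received isotype control antibody or anti–IL-4Rα, respectively, at 25 mg/kg on days 10, 14, 18, and 21. Each group had 5 libraries. PBS and isotype mice thus differed both in the challenge and in the antibody, so that the effects of the challenge and of the control antibody cannot be told apart.

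A dividing cell copies its DNA in S phase and segregates the copies in mitosis. The MCM helicase, loaded at origins by CDC6, opens the DNA, the sliding clamp PCNA holds the polymerases on it, and ribonucleotide reductase, thymidylate synthase, and thymidine kinase supply deoxynucleotides. Replication genes are largely E2F targets. Mitotic genes are transcribed later, by MuvB complexes with B-MYB and FOXM1, commonly through a cell cycle genes homology region (CHR). Their promoters often hold CCAAT boxes as well. In a stratified epithelium such as the conjunctiva, division takes place mainly in and near the basal layer, and infiltrating leukocytes and stromal cells can divide as well.

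The promoters of 5 members, 3 mitotic and 2 of replication, are shown because they hold several copies of these elements. RefSeq promoter sequences (GRCm38.p6) were given for 35 of the 42 members. They were not given for *Ccne2*, *Kif20a*, *Foxm1*, *Tpx2*, *Mcm4*, *Aurkb*, and *Ccna2*. Within 250 bases before the start site, a match to CCAAT, to a CHR (TTTGAA or TTCGAA), or to an E2F element (TTTCCCGC, TTTGGCGC, or TTTCGCGC) on either strand is set in capitals, so a match on the opposite strand appears as its reverse complement, such as ATTGG. Each sequence reads 5′ to 3′ along the gene and ends at the base before the start site in RefSeq. That site can differ from the start of the gene in GENCODE M21, which is used for gene coordinates below. The windows of *Mcm5*, *Mcm6*, and *Ccnb2* end 60, 41, and 7 bases before that gene start, the window of *Cdk1* reaches 26 bases into the gene, and that of *Top2a* adjoins it. 
Top2a (chr11:99024190-99024439, minus strand): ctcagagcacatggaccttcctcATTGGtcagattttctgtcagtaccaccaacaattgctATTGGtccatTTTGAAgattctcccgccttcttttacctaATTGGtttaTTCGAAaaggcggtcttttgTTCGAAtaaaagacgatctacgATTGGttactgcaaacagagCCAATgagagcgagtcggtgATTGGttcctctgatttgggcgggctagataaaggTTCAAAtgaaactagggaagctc
Cdk1 (chr10:69352913-69353162, minus strand): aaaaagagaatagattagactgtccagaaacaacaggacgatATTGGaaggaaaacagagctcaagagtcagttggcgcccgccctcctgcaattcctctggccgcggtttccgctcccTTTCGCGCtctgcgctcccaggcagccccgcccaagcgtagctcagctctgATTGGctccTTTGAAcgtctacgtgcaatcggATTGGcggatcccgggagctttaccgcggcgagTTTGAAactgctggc
Ccnb2 (chr9:70421555-70421804, minus strand): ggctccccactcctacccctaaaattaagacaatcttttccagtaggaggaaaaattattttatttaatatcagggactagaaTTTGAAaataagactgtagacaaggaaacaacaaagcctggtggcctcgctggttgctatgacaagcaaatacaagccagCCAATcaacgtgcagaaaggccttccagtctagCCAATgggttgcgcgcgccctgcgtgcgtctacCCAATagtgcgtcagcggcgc
Mcm5 (chr8:75109259-75109508, plus strand): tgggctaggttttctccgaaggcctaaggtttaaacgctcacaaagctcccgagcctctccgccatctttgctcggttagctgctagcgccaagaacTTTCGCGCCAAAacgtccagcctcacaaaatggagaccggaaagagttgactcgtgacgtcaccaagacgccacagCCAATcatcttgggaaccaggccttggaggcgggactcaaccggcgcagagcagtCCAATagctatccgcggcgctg
Mcm6 (chr1:128359706-128359955, minus strand): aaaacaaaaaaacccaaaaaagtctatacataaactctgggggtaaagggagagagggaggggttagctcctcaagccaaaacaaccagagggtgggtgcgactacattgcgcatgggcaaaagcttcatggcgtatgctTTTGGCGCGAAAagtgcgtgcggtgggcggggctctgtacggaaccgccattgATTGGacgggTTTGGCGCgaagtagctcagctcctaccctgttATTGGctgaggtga
*Top2a* had 6 CCAAT matches and 4 CHR matches, and *Cdk1* had 3 CCAAT, 2 CHR, and 1 E2F match. *Mcm5* had 2 E2F matches and *Mcm6* had 3, and in each promoter a pair of them overlapped on opposite strands.

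Of the 35 promoters, 80% had a CCAAT match, against 34.5% of all 27025 promoters of the same length, and 51.4% had at least 2, against 10.5%. A CHR match was present in 34.3% of the members and 17.4% of all promoters, and an E2F match in 14.3% of the members and 1.59% of all promoters. Among the 22 mitotic promoters, 40.9% had a CHR match and 4.55% an E2F match, whereas among the 13 replication promoters 23.1% had a CHR match and 30.8% an E2F match. These letter matches describe the windows and do not show binding of any factor.

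The libraries held 48622246 to 87745024 counts each, and the 42 members had between 126 and 15117 counts in a library, so that counting error can make up much of the spread between mice for the least abundant members and little of it for the most abundant. Levels are in CPM (a gene's counts scaled to a library of 1000000 counts, with TMM factors). Markers of the labelled tissue were present in every library, including the goblet cell mucin *Muc5ac* (1139 to 1963 CPM in the PBS group) and the epithelial keratin *Krt13* (740 to 1142 CPM in the PBS group). Some libraries stood apart in other markers. Anti–IL-4Rα replicates 1, 4, and 5 had 115344 to 149518 CPM over 8 lacrimal acinar genes, against 140 to 57567 CPM in the other 12 libraries. The highest of these 12 was anti–IL-4Rα replicate 2, above every PBS and isotype library. The list of lacrimal acinar genes includes *Mucl2*, *Obp1a*, and *Esp18*. The study reported the mucin-like and odorant binding protein genes among them, and genes of the *Esp* family, as increased under anti–IL-4Rα. Whether leaving these libraries out, or using the list as a covariate, also removes part of a treatment effect was not tested. Isotype replicate 2 had 6854 CPM over 8 hair follicle genes, against 384 to 1245 CPM in the other 14, and also the largest library (87745024 counts). The counts of members called are given with and without these libraries, and calls in other gene lists that were lost without them are given after the lists.

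Per length of exon, the level of the members spanned a wide range. In the PBS group, *Pcna* had the highest mean per kilobase of exon (30.5 CPM per kb), followed by *Cdc20*, the activator of the anaphase-promoting complex (19.3 CPM per kb), and *Ccnb2*, a mitotic cyclin (10.2 CPM per kb). The lowest was *Cdc6* (0.654 CPM per kb). Within the PBS group the members varied little between mice, with a median coefficient of variation of 8.46%, and the anti–IL-4Rα group was similar at 8.81%. Within the isotype group the median coefficient of variation was 23.2%.

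The isotype group had the highest mean of all 3 groups for each of the 42 members. Summed over the 15 replication members, the level was 398, 359, 364, 358, and 357 CPM in the PBS libraries, 415, 632, 507, 392, and 468 CPM in the isotype libraries, and 317, 336, 337, 331, and 353 CPM in the anti–IL-4Rα libraries. Summed over the 27 mitotic members, it was 671, 580, 647, 581, and 542 CPM in the PBS libraries, 690, 1145, 867, 715, and 719 CPM in the isotype libraries, and 503, 441, 527, 519, and 542 CPM in the anti–IL-4Rα libraries. For the mitotic sum every isotype library was above every PBS library, whereas for the replication sum isotype replicate 4 lay below PBS replicate 1. In whole tissue, fewer dividing cells and less RNA per dividing cell cannot be told apart.

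**Figure D1:**
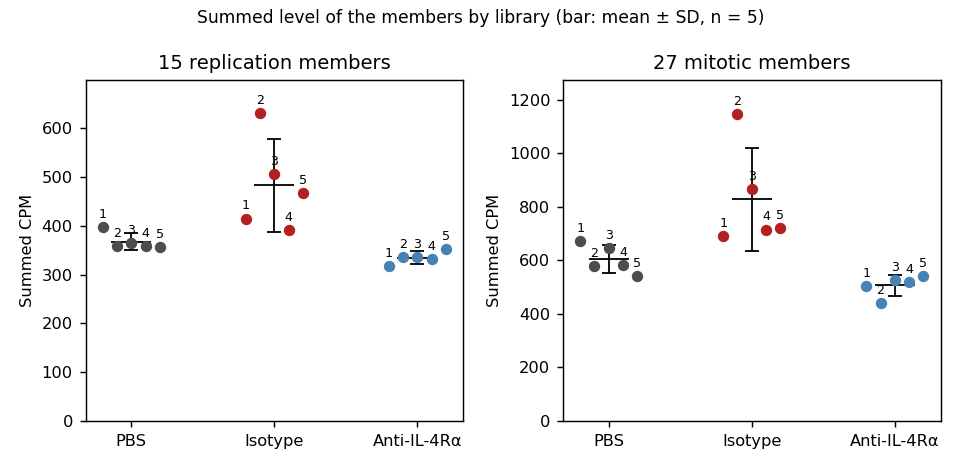
Summed CPM (vertical axis, starting at 0) of the 15 replication members (left) and the 27 mitotic members (right) in each of 15 libraries, with the replicate number above each point and the mean ± SD of 5 libraries as a bar. Isotype replicate 2 is the highest point in both panels (632 and 1145 CPM), and the anti–IL-4Rα libraries lie at or below 353 and 542 CPM.

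The same isotype libraries were highest for nearly every member. Replicate 2 was the highest of all 15 libraries for 42 of 42 members, and replicate 3 was the second highest isotype library for 40, with replicate 5 in that place for the other 2. The remaining libraries also stood above the PBS group for most members: replicate 5 exceeded every PBS library for 37 members, replicate 1 for 30, and replicate 4 for 27. In the PBS group, replicate 1 was highest for 28 members and replicate 5 lowest for 30. In the anti–IL-4Rα group, replicate 2 was lowest for 26 of 27 mitotic members and for 3 of 15 replication members.

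**Figure D2:**
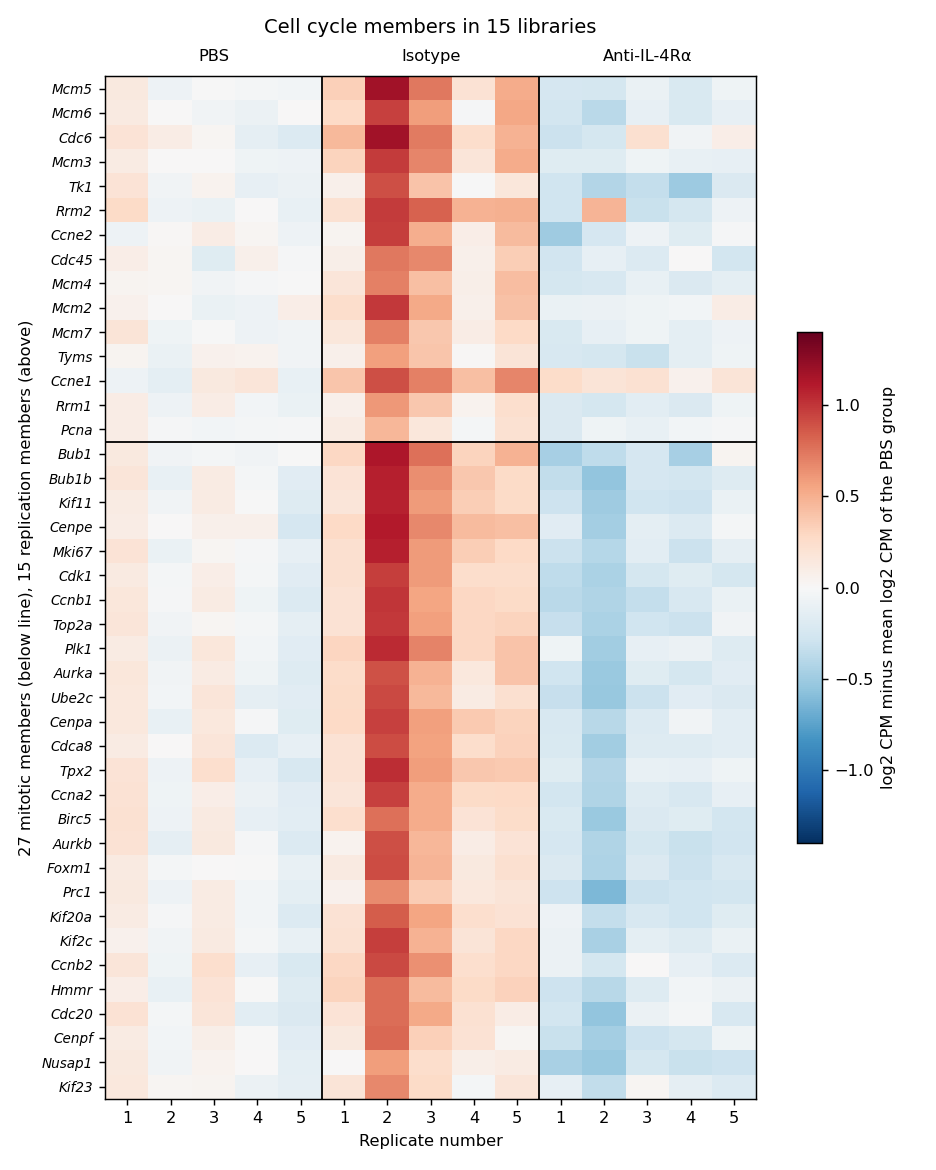
Level of each of the 42 members (rows) in each of 15 libraries (columns, by group and replicate number), as log2 CPM minus the mean log2 CPM of the PBS group. The column of isotype replicate 2 is the darkest red in all 42 rows, isotype replicate 3 is next in most, and most anti–IL-4Rα cells are blue, with *Ccne1* and, in replicate 2, *Rrm2* among the exceptions.

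The comparison of isotype with PBS addressed the response to ocular antigen. All 42 members had a higher mean in the isotype group, and 32 of them rose at an adjusted p under 0.05 (edgeR quasi-likelihood test with Benjamini-Hochberg adjustment over all genes tested). Of all 19006 genes, 9.53% were called higher. The 32 were 11 of the 15 replication members and 21 of the 27 mitotic members. The median log2 fold change over the 42 was 0.46, an increase of 37.8%, with a range from 0.19 for *Pcna* to 0.65 for *Cdc6*, against a median of -0.012 over all genes tested. For 21 members, 5 of replication and 16 of mitosis, every isotype library was above every PBS library, which held for 6.85% of all genes. Of the members that rose, 6 did so by at least 1.5-fold. The number called was 14 without PBS replicate 5, 15 without isotype replicate 3, 18 without PBS replicate 2, and 21 without PBS replicate 4, with all 42 means still higher in each case. Of all genes tested, 1255, 1095, 1237, and 1285 were called higher in these fits, in this order, against 1812 with all libraries. Without isotype replicate 2, the library rich in hair follicle genes, 26 members and 1253 of all genes were called higher. The median over the members was then 0.32. When anti–IL-4Rα replicates 1, 4, and 5 were left out as well, 13 members and 989 of all genes were called higher.

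Replication members covered helicase, loader, and cyclin genes. *Ccne1*, which encodes cyclin E1, the partner of CDK2 at entry into S phase (ENSMUSG00000002068, chr7:38097984-38107534, minus strand), had the lowest adjusted p. Its level was 4.34, 4.16, 5.01, 5.14, and 4.24 CPM in the PBS libraries, 5.97, 8.52, 7.46, 6.1, and 7.31 CPM in the isotype libraries, and 5.43, 5.15, 5.3, 4.77, and 5.15 CPM in the anti–IL-4Rα libraries. Each isotype library was above each PBS library (log2 fold change 0.63 ± 0.10, adjusted p = 0.00216). *Cdc6*, the helicase loader, stood at 3.88, 3.65, 3.47, 3.12, and 2.99 CPM in the PBS libraries, 4.66, 7.69, 5.62, 4.05, and 4.77 CPM in the isotype libraries, and 2.77, 2.88, 3.98, 3.29, and 3.64 CPM in the anti–IL-4Rα libraries, and it likewise rose with no overlap of the isotype and PBS libraries (log2 fold change 0.65 ± 0.16, adjusted p = 0.0164).

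The MCM2–MCM7 helicase subunits all rose. The level of *Mcm5* (ENSMUSG00000005410, chr8:75109569-75128439, plus strand) was 30.8, 26.8, 27.9, 27.6, and 27.4 CPM in the PBS libraries, 35.5, 63.6, 46.9, 32.3, and 40.3 CPM in the isotype libraries, and 23.8, 23.6, 26.3, 24.3, and 27 CPM in the anti–IL-4Rα libraries. *Mcm3* was measured at 23.8, 22.1, 22.1, 21.1, and 20.9 CPM in the PBS libraries, 27.3, 43.3, 35.4, 24.7, and 31.5 CPM in the isotype libraries, and 19.5, 19.5, 21.1, 20.4, and 20.3 CPM in the anti–IL-4Rα libraries. *Mcm4* was measured at 29.7, 29.4, 27.9, 28.5, and 28.7 CPM in the PBS libraries, 32.5, 47, 38.6, 30.5, and 38.8 CPM in the isotype libraries, and 24.4, 24.6, 26.9, 25, and 26.2 CPM in the anti–IL-4Rα libraries. For these 3 subunits the isotype libraries lay above all PBS libraries, with a log2 fold change of 0.64 ± 0.14 for *Mcm5* (adjusted p = 0.00982), 0.56 ± 0.11 for *Mcm3* (adjusted p = 0.00715), and 0.38 ± 0.09 for *Mcm4* (adjusted p = 0.0133). *Mcm2* (ENSMUSG00000002870, chr6:88883474-88898780, minus strand) had 29.1, 27.9, 26.1, 26.5, and 29.7 CPM in the PBS libraries, 33, 55.3, 40.2, 29.2, and 37 CPM in the isotype libraries, and 26.1, 26.3, 26.6, 27, and 29.8 CPM in the anti–IL-4Rα libraries. Its lowest isotype library, replicate 4, lay within the PBS range, and the difference passed the test (log2 fold change 0.48 ± 0.13, adjusted p = 0.0213) and the exact permutation test over libraries (two-sided p = 0.0159). *Mcm6* and *Mcm7* also rose, by 0.51 and 0.34 on the log2 scale, with isotype libraries that overlapped the PBS group.

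*Pcna*, the sliding clamp (ENSMUSG00000027342, chr2:132249162-132253314, minus strand), had the smallest difference. Its level was 78.4, 72.4, 71.2, 72.1, and 72.2 CPM in the PBS libraries, 79.2, 101, 81.9, 71.6, and 84.9 CPM in the isotype libraries, and 63.4, 70, 68.1, 71.3, and 72.6 CPM in the anti–IL-4Rα libraries. The isotype group spanned 71.6 to 101 CPM and the PBS group 71.2 to 78.4 CPM, so that the groups overlapped, and the difference did not pass the test (log2 fold change 0.19 ± 0.07, adjusted p = 0.0815). It passed without isotype replicate 4 (adjusted p = 0.0246). The other replication members that did not pass were *Tyms* (0.26 ± 0.09, adjusted p = 0.0669), *Tk1* (0.34 ± 0.14, adjusted p = 0.113), and *Ccne2* (0.45 ± 0.15, adjusted p = 0.0557), which encode thymidylate synthase, thymidine kinase 1, and cyclin E2. Both subunits of ribonucleotide reductase rose, *Rrm2* by 0.62 ± 0.16 (adjusted p = 0.0213) and *Rrm1* by 0.28 ± 0.09 (adjusted p = 0.0479), as did *Cdc45*, a helicase cofactor, by 0.41 ± 0.13 (adjusted p = 0.0399).

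Among mitotic members, *Mki67*, which encodes the Ki-67 protein that coats mitotic chromosomes (ENSMUSG00000031004, chr7:135689784-135716361, minus strand), stood at 83.3, 68.4, 74.4, 71.9, and 67.4 CPM in the PBS libraries, 85.3, 155, 110, 92.7, and 88.6 CPM in the isotype libraries, and 59.1, 55.4, 65.8, 59.2, and 66.8 CPM in the anti–IL-4Rα libraries. The isotype libraries lay above all PBS libraries (log2 fold change 0.54 ± 0.14, adjusted p = 0.018). *Top2a*, the topoisomerase that untangles sister chromatids (ENSMUSG00000020914, chr11:98992943-99024189, minus strand), was at 62.6, 53.7, 56.9, 54.8, and 51.2 CPM in the PBS libraries, 64.3, 111, 82.7, 68.1, and 69 CPM in the isotype libraries, and 44.4, 40.9, 45.8, 45.2, and 53.7 CPM in the anti–IL-4Rα libraries. It showed the same separation of the isotype and PBS libraries (log2 fold change 0.50 ± 0.13, adjusted p = 0.0191).

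*Cdk1*, the mitotic kinase (ENSMUSG00000019942, chr10:69335146-69352938, minus strand), had 21.5, 19.2, 20.9, 19.2, and 17.6 CPM in the PBS libraries, 23, 38.4, 29.6, 23.3, and 23.2 CPM in the isotype libraries, and 15.4, 14.4, 16.5, 17.4, and 16.6 CPM in the anti–IL-4Rα libraries. Its partner *Ccnb1*, cyclin B1 (ENSMUSG00000041431, chr13:100778650-100786570, minus strand), had 26.8, 23.7, 26.1, 23, and 21.1 CPM in the PBS libraries, 27.7, 48.2, 35.2, 29.4, and 29 CPM in the isotype libraries, and 18.5, 17.9, 19.1, 20.6, and 22.5 CPM in the anti–IL-4Rα libraries. Both rose without overlap, *Cdk1* by 0.48 ± 0.13 (adjusted p = 0.0205) and *Ccnb1* by 0.49 ± 0.13 (adjusted p = 0.0239) on the log2 scale. *Plk1*, the polo kinase, was at 18.9, 16.4, 19.4, 17, and 15.6 CPM in the PBS libraries, 21.5, 35.8, 28.1, 21.2, and 22.9 CPM in the isotype libraries, and 16.7, 12.4, 16.1, 16.5, and 15.4 CPM in the anti–IL-4Rα libraries, with the isotype libraries again above all PBS libraries (log2 fold change 0.57 ± 0.14, adjusted p = 0.0137). The call for *Cdk1* was lost without PBS replicate 5 (adjusted p = 0.0512) or isotype replicate 3 (adjusted p = 0.0515), and that for *Ccnb1* without either of these or without PBS replicate 2 or 4 (adjusted p = 0.0518 to 0.0587).

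Kinetochore and checkpoint genes were likewise highest in isotype replicate 2. *Bub1*, a checkpoint kinase, was at 6.5, 5.73, 5.79, 5.72, and 5.89 CPM in the PBS libraries, 7.23, 13, 10.1, 7.34, and 8.31 CPM in the isotype libraries, and 4.28, 4.61, 5.01, 4.3, and 6.07 CPM in the anti–IL-4Rα libraries. *Cenpe*, a kinetochore motor, was at 10.4, 9.65, 10.1, 10.1, and 8.17 CPM in the PBS libraries, 11.7, 20.8, 15.4, 13.1, and 12.9 CPM in the isotype libraries, and 8.67, 6.92, 8.77, 8.42, and 9.45 CPM in the anti–IL-4Rα libraries. *Cenpa*, the centromeric histone, was at 23.3, 19.6, 23.3, 20.8, and 18.8 CPM in the PBS libraries, 25.5, 40.8, 31.5, 27.1, and 26.1 CPM in the isotype libraries, and 18, 16.1, 18.5, 20.4, and 19.1 CPM in the anti–IL-4Rα libraries. All 3 rose with every isotype library above every PBS library, by 0.63 ± 0.15 for *Bub1* (adjusted p = 0.0134), 0.61 ± 0.14 for *Cenpe* (adjusted p = 0.0112), and 0.51 ± 0.12 for *Cenpa* (adjusted p = 0.0123). *Hmmr*, a spindle-associated protein and hyaluronan receptor, had 13.1, 11.4, 14, 12.2, and 10.8 CPM in the PBS libraries, 15.2, 21, 16.6, 14.7, and 15.3 CPM in the isotype libraries, and 10, 9.33, 10.8, 11.9, and 11.6 CPM in the anti–IL-4Rα libraries, and also rose (log2 fold change 0.43 ± 0.11, adjusted p = 0.0161).

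The checkpoint kinase gene *Bub1b* was at 19.7, 16.2, 18.9, 17.2, and 15.7 CPM in the PBS libraries, 19.9, 37.1, 27.4, 22.7, and 21 CPM in the isotype libraries, and 13.8, 11.9, 14.9, 14.6, and 15.4 CPM in the anti–IL-4Rα libraries. It rose (log2 fold change 0.55 ± 0.15, adjusted p = 0.0218), and lost the call without PBS replicate 2 or 5 or isotype replicate 3 (adjusted p = 0.0533 to 0.0538). *Birc5*, which encodes the chromosomal passenger survivin, had 17.6, 14.5, 16.6, 14.1, and 13.7 CPM in the PBS libraries, 17.9, 26, 21.8, 17.4, and 18.2 CPM in the isotype libraries, and 13.1, 10.6, 13.2, 13.5, and 12.7 CPM in the anti–IL-4Rα libraries. Isotype replicate 4 lay just below PBS replicate 1, and the call (log2 fold change 0.41 ± 0.11, adjusted p = 0.0272) was lost without PBS replicate 2, 4, or 5 or isotype replicate 2 or 3 (adjusted p = 0.0604 to 0.0667). *Prc1*, which bundles the central spindle, was at 36.6, 31.7, 36.2, 32.4, and 30.4 CPM in the PBS libraries, 34.9, 52.8, 42.6, 37, and 37.9 CPM in the isotype libraries, and 27.2, 21.6, 27.1, 27.4, and 27.9 CPM in the anti–IL-4Rα libraries. The groups overlapped for *Prc1*, and the difference did not pass the test (log2 fold change 0.29 ± 0.11, adjusted p = 0.0702). It passed without isotype replicate 1 (adjusted p = 0.0394).

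The other mitotic members that did not pass were *Nusap1* (log2 fold change 0.22), *Kif23* (0.27), *Cenpf* (0.33), *Aurkb* (0.37), and *Cdc20* (0.38), with adjusted p from 0.0666 to 0.142. *Nusap1* and *Kif23* act, like *Prc1*, on the late spindle and midbody, and whether this role has a part in their results was not tested. The other 10 mitotic members that rose, among them the transcription factor gene *Foxm1* (0.41 ± 0.13) and the spindle motor gene *Kif11* (0.53 ± 0.14), did so by 0.41 to 0.53 on the log2 scale. All 10 members that were not called had an unadjusted p under 0.05.

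**Figure D3:**
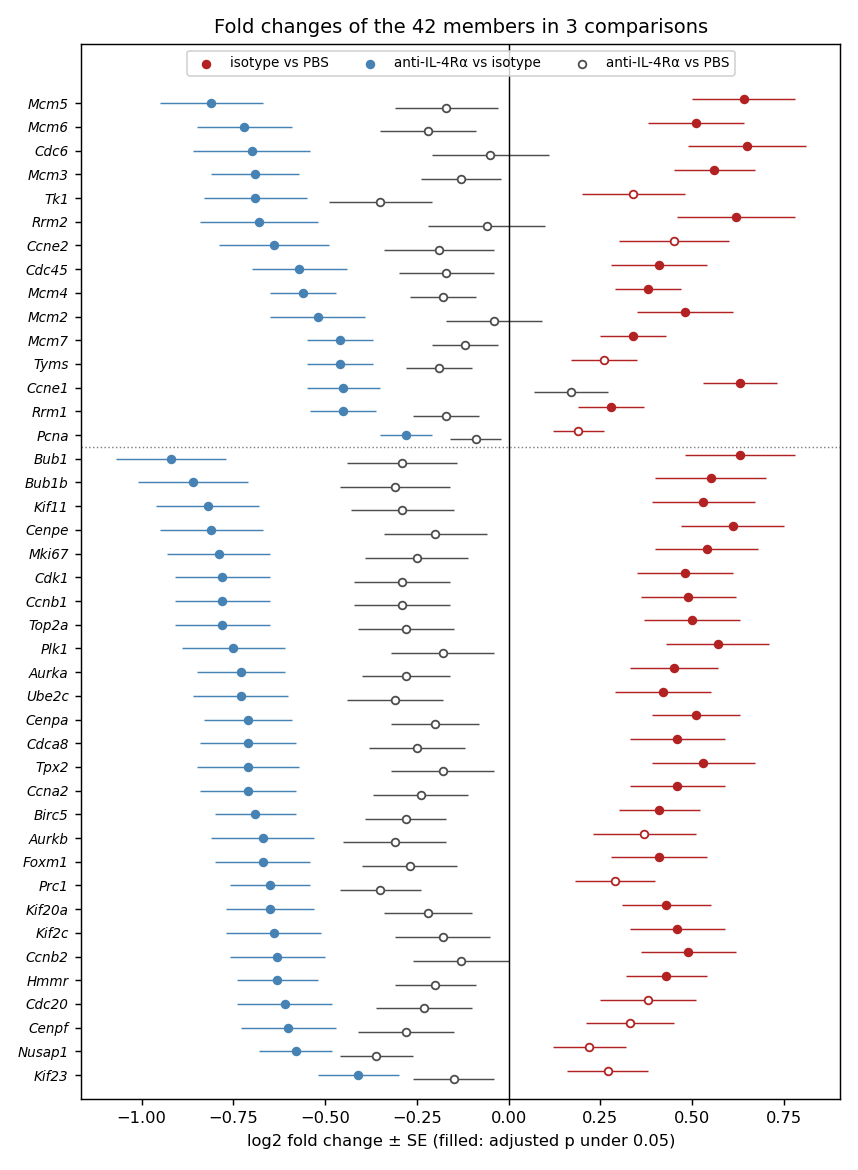
log2 fold change ± SE (horizontal axis) of each of the 42 members for isotype against PBS (red), anti–IL-4Rα against isotype (blue), and anti–IL-4Rα against PBS (grey), with replication members above the dotted line and filled points for an adjusted p under 0.05. All red points lie right of 0 and all blue points left of it, 32 red and 42 blue points are filled, and no grey point is filled.

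The comparison of anti–IL-4Rα with isotype addressed the effect of receptor blockade in OVA-challenged mice. All 42 members fell at an adjusted p under 0.05 by edgeR, with adjusted p from 0.00371 for *Mcm4* to 0.0267 for *Kif23*, and 8.13% of all 19006 genes were called lower. The median log2 fold change was -0.68, so that the level decreased by 37.7%, ranging from -0.92 for *Bub1* to -0.28 for *Pcna*. It was -0.71 over the 27 mitotic members and -0.57 over the 15 replication members, against 0.009 over all genes tested. Of the 42, 32 fell by at least 1.5-fold, 25 mitotic and 7 replication members. For 38 members, 12 of replication and 26 of mitosis, the highest anti–IL-4Rα library did not reach the lowest isotype library, as was the case for 4.96% of all genes. The exceptions were *Mcm2*, *Pcna*, *Rrm2*, and *Kif23*.

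The values by library given above for the isotype and anti–IL-4Rα groups show the separation gene by gene. *Mki67* fell from a mean of 106 ± 28.7 to 61.3 ± 4.89 CPM (SD, n = 5 each; log2 fold change -0.79 ± 0.14, adjusted p = 0.00511), and its highest anti–IL-4Rα library (66.8 CPM) was below its lowest isotype library (85.3 CPM). *Top2a* fell by 0.78 ± 0.13 on the log2 scale (adjusted p = 0.00428), *Cdk1* by 0.78 ± 0.13 (adjusted p = 0.00404), and *Ccnb1* by 0.78 ± 0.13 (adjusted p = 0.00495). *Bub1* fell by 0.92 ± 0.15 (adjusted p = 0.00408) and *Bub1b* by 0.86 ± 0.15 (adjusted p = 0.00486), with *Cenpe* at 0.81 ± 0.14 (adjusted p = 0.00496) and *Plk1* at 0.75 ± 0.14 (adjusted p = 0.00637). *Prc1*, which had not passed the test between isotype and PBS, fell by 0.65 ± 0.11 (adjusted p = 0.00428), *Birc5* by 0.69 ± 0.11 (adjusted p = 0.00441), *Cenpa* by 0.71 ± 0.12 (adjusted p = 0.00441), and *Hmmr* by 0.63 ± 0.11 (adjusted p = 0.00479). For each of these single members, the exact permutation test of the mean CPM gave a two-sided p of 0.00794, the smallest that splits of 10 libraries into 2 groups of 5 allow.

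Among replication members, the MCM genes fell by 0.46 (*Mcm7*) to 0.81 (*Mcm5*) on the log2 scale. *Mcm4* fell by 0.56 ± 0.09 (adjusted p = 0.00371) and *Mcm3* by 0.69 ± 0.12 (adjusted p = 0.00441). *Mcm2* fell by 0.52 ± 0.13 (adjusted p = 0.0212), with anti–IL-4Rα replicate 5 at 29.8 CPM above isotype replicate 4 at 29.2 CPM. It was not called without isotype replicate 3 (adjusted p = 0.055) or anti–IL-4Rα replicate 1 (adjusted p = 0.0523). *Pcna* fell by 0.28 ± 0.07 (adjusted p = 0.0259), and the call was lost when anti–IL-4Rα replicate 1 or either of isotype replicates 3 and 5 was left out (adjusted p = 0.0531 to 0.0672). *Ccne1* fell by 0.45 ± 0.10 (adjusted p = 0.0146) and *Cdc6* by 0.70 ± 0.16 (adjusted p = 0.0173).

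*Rrm2*, a subunit of ribonucleotide reductase, was an exception within the anti–IL-4Rα group. It stood at 18.6, 31.4, 18.3, 19.1, and 21.6 CPM there, at 26.2, 44.6, 40.2, 31.7, and 31.9 CPM in the isotype group, and at 27.2, 21.6, 21.2, 22.8, and 21 CPM in the PBS group. Anti–IL-4Rα replicate 2, which had the lowest level of 26 mitotic members in its group, had the highest level of *Rrm2* in that group. The difference between anti–IL-4Rα and isotype passed the test all the same (log2 fold change -0.68 ± 0.16, adjusted p = 0.0199).

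The count of 42 members called lower was at least 38 without any single isotype library (41 without isotype replicate 2, with a median log2 fold change of -0.53) and at least 37 without any single anti–IL-4Rα library. With the lacrimal acinar level as a covariate it was 35, and 9 of the 15 replication members were called. In that fit, 478 of all 19006 genes were called lower, against 1546 without the covariate. Without anti–IL-4Rα replicates 1, 4, and 5, the libraries richest in lacrimal acinar RNA, 2 libraries were left in that group. Of these, replicate 2 still had 57567 CPM of lacrimal acinar genes, above every PBS and isotype library (up to 50069 and 31706 CPM). No member then passed the test (0 by edgeR, 41 at an unadjusted p under 0.05). Over the whole table, 44 of 18891 genes were called in either direction, and the share at that unadjusted threshold is not given. *Mki67* still differed by -0.81 (adjusted p = 0.164) and *Bub1* by -0.93 (adjusted p = 0.131). Leaving out isotype replicate 2 as well, *Top2a* and *Ccnb1* were called. Anti–IL-4Rα replicate 3, with 1259 CPM of lacrimal acinar genes, was below every isotype library for 41 of 42 members. This is 1 library, and treatment and lacrimal content cannot be told apart between these groups.

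**Figure D4:**
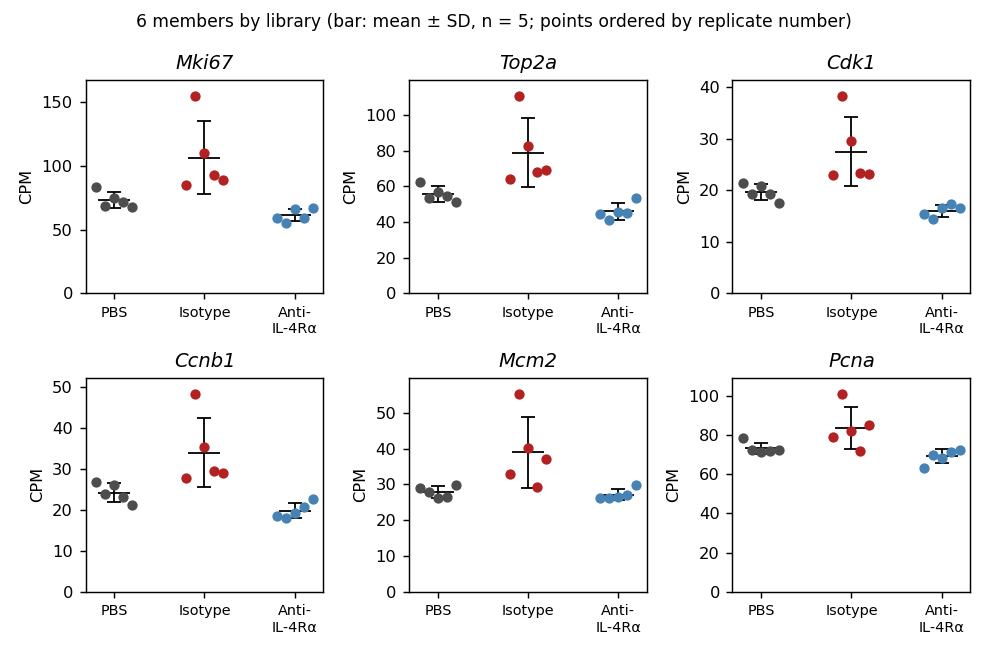
CPM (vertical axes, starting at 0) of *Mki67*, *Top2a*, *Cdk1*, *Ccnb1*, *Mcm2*, and *Pcna* in the 15 libraries, with points in order of replicate number and the mean ± SD of 5 libraries as a bar. The isotype and anti–IL-4Rα points are separate for the 4 mitotic genes in the plot and overlap for *Mcm2* and *Pcna*.

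Anti–IL-4Rα was also set against PBS, to see where the members stood relative to mice without antigen challenge. This comparison shares its libraries with the other 2. None of the 42 members passed the test by edgeR (lowest adjusted p = 0.0569, for *Nusap1*), and 12 had an unadjusted p under 0.05, of which 11 were mitotic. Of all genes, 1.44% were called lower by edgeR. By DESeq2 and by voom with quality weights, 2 members each were called lower, against 3.83% and 4.9% of all genes. The mean was lower than in the PBS group for 41 members, with a median log2 fold change of -0.27 over the mitotic members and -0.17 over the replication members. It was higher for *Ccne1* (0.17 ± 0.10, adjusted p = 0.321). For 12 members, 3 of replication and 9 of mitosis, the highest anti–IL-4Rα library stayed below the lowest PBS library, against 3.12% of all genes.

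*Nusap1* (log2 fold change -0.36 ± 0.10) and *Prc1* (-0.35 ± 0.11, adjusted p = 0.0747) had the largest differences from PBS together with *Tk1* (-0.35 ± 0.14, adjusted p = 0.163). For *Prc1* the anti–IL-4Rα libraries spanned 21.6 to 27.9 CPM and the PBS libraries 30.4 to 36.6 CPM, without overlap. For *Mcm2* they spanned 26.1 to 29.8 CPM and 26.1 to 29.7 CPM (-0.04 ± 0.13, adjusted p = 0.904). Without isotype replicate 2, 4 members were called lower, and without anti–IL-4Rα replicates 1, 4, and 5, 0 were called by edgeR (2 at an unadjusted p under 0.05). With the lacrimal acinar level as a covariate the median was -0.05 over the mitotic and 0.01 over the replication members, and 0 were called by edgeR (2 at an unadjusted p under 0.05).

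Other genes of the cell cycle were read from lists. For this and the later lists, 1812 of all 19006 genes were called higher and 1423 lower in isotype against PBS by edgeR. In anti–IL-4Rα against isotype, 1280 of all genes were called higher and 1546 lower. Of 25 further replication genes, 13 rose in isotype against PBS and 20 fell in anti–IL-4Rα against isotype. *Orc1*, a subunit of the origin recognition complex, rose by 0.94 ± 0.17 (adjusted p = 0.00414), and fell by 1.10 ± 0.17 under anti–IL-4Rα (adjusted p = 0.00345). *Brca1*, a DNA repair gene, rose by 0.56 ± 0.14 (adjusted p = 0.0155) and *Uhrf1*, which maintains DNA methylation, by 0.66 ± 0.16 (adjusted p = 0.016). Of 30 further mitotic genes, 16 rose and 29 fell in these comparisons. *Smc2*, a condensin subunit, rose by 0.45 ± 0.11 and *Cdca5*, which stabilizes cohesin, by 0.59 ± 0.14 (adjusted p = 0.0152 for both). Against PBS, *Melk*, a mitotic kinase named after its values were seen, was called lower in anti–IL-4Rα by edgeR (-0.47 ± 0.09, adjusted p = 0.0254), the only call in both lists by that test. Of the 30 further mitotic genes, 17 had an unadjusted p under 0.05, and DESeq2 and voom called 6 each. Of the 25 further replication genes, 0 were called by edgeR (1 at an unadjusted p under 0.05), DESeq2, or voom.

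Genes that act earlier in the cycle were read in the same way. Of 6 G1 cyclins and their kinases, *Ccnd3* and *Cdk6* rose in isotype against PBS, by 0.17 ± 0.05 (adjusted p = 0.0214) and 0.25 ± 0.08 (adjusted p = 0.0426), and *Cdk6* fell in anti–IL-4Rα against isotype (adjusted p = 0.0157). *Ccnd1*, cyclin D1, had 103 ± 3.1 CPM (SD, n = 5) in the PBS group, 109 ± 18.2 CPM in the isotype group, and 110 ± 13.5 CPM in the anti–IL-4Rα group, and was called in neither comparison. Of 18 genes of the E2F, MuvB, and pocket protein families, 8 rose in isotype against PBS, among them *E2f4* (0.19 ± 0.04, adjusted p = 0.00675), *Lin54*, a MuvB subunit (0.30 ± 0.06, adjusted p = 0.0071), *E2f7* (0.78 ± 0.19, adjusted p = 0.0162), and *E2f1* (0.40 ± 0.11, adjusted p = 0.0213). In anti–IL-4Rα against isotype, 7 of the 18 fell and 1 rose, the quiescence-associated pocket protein gene *Rbl2* (0.23 ± 0.06, adjusted p = 0.0297).

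Of 11 CDK inhibitor genes and p53 targets, 10 were tested, and 2 were called in isotype against PBS. *Cdkn1c* (p57) fell in isotype against PBS by 0.60 ± 0.15 (adjusted p = 0.0165) and *Cdkn1b* (p27) by 0.20 ± 0.06 (adjusted p = 0.0338). *Cdkn1a* (p21) was not called (-0.02 ± 0.07, adjusted p = 0.895). In anti–IL-4Rα, *Cdkn2d* (p19) was lower than in isotype (-0.30 ± 0.04, adjusted p = 0.00184) and lower than in PBS (-0.29 ± 0.04, adjusted p = 0.00958). *Cdkn2a* was below the filter.

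Of 8 genes of EGF family growth factors and their receptor, which act on epithelial cells, 3 rose and 1 fell in isotype against PBS. *Epgn*, epigen, rose by 1.95 ± 0.42 (adjusted p = 0.00922), *Areg*, amphiregulin, by 0.87 ± 0.20 (adjusted p = 0.0118), and *Hbegf* by 0.79 ± 0.24 (adjusted p = 0.0363), whereas *Btc*, betacellulin, fell by 0.57 ± 0.09 (adjusted p = 0.00255). In anti–IL-4Rα against isotype, these 3 ligands fell, *Epgn* by 1.99 ± 0.42 (adjusted p = 0.0129), *Areg* by 1.04 ± 0.20 (adjusted p = 0.00867), and *Hbegf* by 0.78 ± 0.24 (adjusted p = 0.0437). *Egf* was higher in anti–IL-4Rα than in isotype (1.62 ± 0.48, adjusted p = 0.0411). Its level was 28.1, 38.3, 6.57, 32, and 28.6 CPM in the anti–IL-4Rα libraries and 10.1, 3.77, 6.45, 17.4, and 5.92 CPM in the isotype libraries. The lowest of the anti–IL-4Rα libraries, replicate 3, was also the lowest of them in lacrimal acinar genes (1259 CPM). The highest in *Egf*, replicate 2, had 57567 CPM of lacrimal acinar genes, less than replicates 1, 4, and 5 (115344 to 149518 CPM). The part of lacrimal content in the *Egf* difference was not tested. Without anti–IL-4Rα replicates 1, 4, and 5, *Egf* was not called (1.37 ± 0.66, adjusted p = 0.325), nor with the lacrimal acinar level as a covariate (0.90 ± 0.29, adjusted p = 0.1). The receptor gene *Egfr* was not called (-0.01 ± 0.05 and -0.11 ± 0.05).

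**Figure D5:**
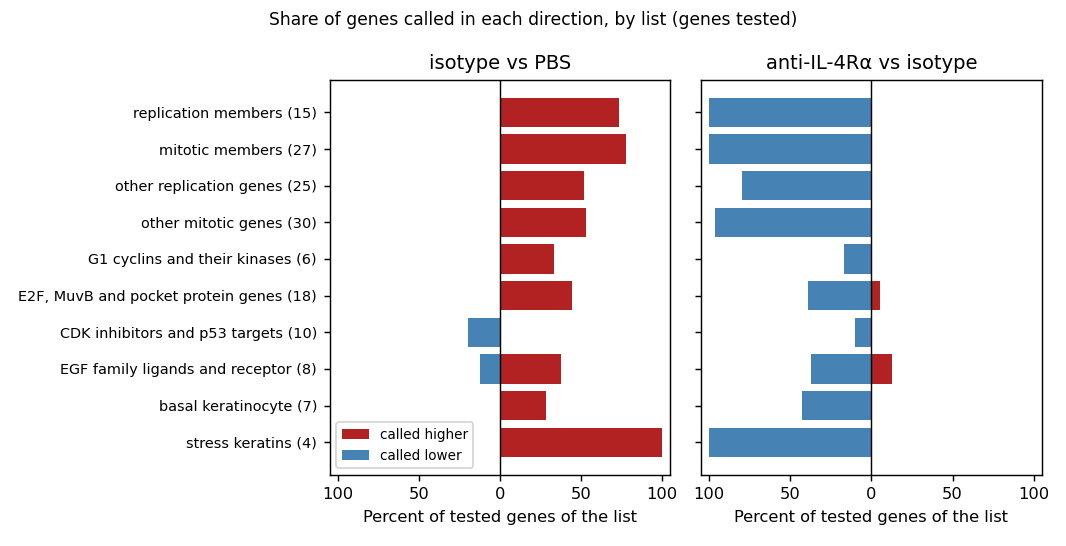
Percent of the tested genes of each list (rows, number tested in parentheses) that were called higher (red, to the right) or lower (blue, to the left) in isotype against PBS (left panel) and in anti–IL-4Rα against isotype (right panel), by edgeR at an adjusted p under 0.05. The replication and mitotic members and the further genes of both kinds extend to the right in the left panel and to the left in the right panel, as do the 4 stress keratins.

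Markers of the cell types that the tissue can hold moved with some of these results, and their part in them was not tested. In the basal keratinocyte list of 7 genes (summed 12193 to 14652 CPM in PBS, 12491 to 15792 in isotype, and 9812 to 13457 in anti–IL-4Rα), *Krt14* (0.55 ± 0.11, adjusted p = 0.00694) and *Itga6* rose in isotype against PBS and 3 fell in anti–IL-4Rα against isotype, while *Krt5* was not called (0.02 ± 0.11). Over the 7 genes, the median log2 fold change in isotype against PBS was 0.02 (range -0.35 to 0.55). In anti–IL-4Rα against isotype it was -0.25 (range -0.75 to 0.06). All 4 stress keratins, which mark activated and hyperproliferative keratinocytes, rose in isotype against PBS and fell in anti–IL-4Rα against isotype (summed 3067 to 4220, 5065 to 6610, and 2725 to 3917 CPM). *Krt16* rose by 3.18 ± 0.45 (adjusted p = 0.00108) and fell by 2.57 ± 0.44 (adjusted p = 0.00479). Of 7 genes of differentiated conjunctival epithelium (summed 3501 to 5844, 4029 to 5413, and 3330 to 5330 CPM), 0 were called between isotype and PBS by edgeR, DESeq2, or voom (1 at an unadjusted p under 0.05) and 1, *Pax6*, was higher in anti–IL-4Rα than in isotype.

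Among leukocytes, 5 of 6 macrophage and monocyte markers rose in isotype against PBS (summed 224 to 241 CPM in PBS, 284 to 651 in isotype, and 263 to 386 in anti–IL-4Rα), and *Mrc1* fell under anti–IL-4Rα (-1.01 ± 0.23, adjusted p = 0.015). Of 6 T cell markers, *Cd8a*, *Cd4*, and *Cd3d* rose, and under anti–IL-4Rα 0 were called by edgeR (1 at an unadjusted p under 0.05) and 1 each by DESeq2 and voom (summed 13.1 to 19.3, 17.9 to 37.3, and 17.6 to 39.2 CPM). B cell markers were near the limit of detection (6 genes, summed 1.58 to 4.12, 2.58 to 6.35, and 2.94 to 10.8 CPM), with 0 of 5 tested called between isotype and PBS by edgeR, DESeq2, or voom (1 at an unadjusted p under 0.05 by edgeR). Of germinal center genes, *Gcsam* rose in isotype against PBS among 4 tested (summed 20.3 to 22.8, 21.5 to 29.0, and 21.5 to 27.5 CPM). All 4 had an unadjusted p under 0.05 by edgeR, with log2 fold changes from -0.58 to 1.01, and DESeq2 called 2 and voom 3. Of 6 plasma cell genes, *Jchain* and *Mzb1* rose in isotype against PBS, and under anti–IL-4Rα *Xbp1* rose and *Prdm1* fell (summed 909 to 1017, 864 to 1068, and 928 to 1135 CPM). *Xbp1*, a factor of secretory cells, had 345, 261, 177, 433, and 419 CPM in the anti–IL-4Rα libraries, with the 3 highest in the lacrimal-rich replicates 1, 4, and 5. It rose by 0.84 ± 0.23 (adjusted p = 0.029) with them and differed by 0.27 ± 0.23 (adjusted p = 0.563) without them.

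Of the other lists, 1 of 4 endothelial genes rose and 1 of 5 fibroblast genes (*Dcn*) fell in isotype against PBS, the latter rising under anti–IL-4Rα. Their summed ranges were 110 to 151, 110 to 151, and 112 to 142 CPM for endothelium, and 3243 to 4103, 3210 to 6186, and 3410 to 5489 CPM for fibroblasts, in PBS, isotype, and anti–IL-4Rα. Over the 5 fibroblast genes, the median log2 fold change in isotype against PBS was 0.21 (range -0.42 to 0.70). By edgeR, 4 of the 5 had an unadjusted p under 0.05 in that comparison, and DESeq2 called 3 and voom 2. Skeletal muscle genes were lower in isotype than in PBS for 5 of 7 (summed 6003 to 11002 against 3692 to 5672 CPM, and 4753 to 7022 CPM in anti–IL-4Rα), and under anti–IL-4Rα 0 were called by edgeR (1 at an unadjusted p under 0.05) and 1 by DESeq2. Of 8 hair follicle genes, 0 were called by edgeR in either comparison, but 7 had an unadjusted p under 0.05 in each, and DESeq2 called 1 between isotype and PBS and 2 under anti–IL-4Rα. Their sums were 540 to 1060 CPM in PBS, 506 to 6854 CPM in isotype, and 384 to 1245 CPM in anti–IL-4Rα. Of 6 meibomian genes 0 were called by edgeR, DESeq2, or voom (summed 1874 to 4148, 1203 to 4017, and 2906 to 3801 CPM). Of 5 erythroid genes 0 were called by edgeR or DESeq2, whereas voom with quality weights called 5 lower in isotype than in PBS (summed 736 to 1438, 380 to 1318, and 494 to 1018 CPM). Of 8 lacrimal acinar genes, 1 (*Aqp5*) was called higher in anti–IL-4Rα than in isotype by edgeR (0.48 ± 0.15, adjusted p = 0.0444), 3 had an unadjusted p under 0.05, and DESeq2 and voom called 3 each. Their median log2 fold change was 2.7, with sums of 140 to 50069 CPM in PBS, 173 to 31706 CPM in isotype, and 1259 to 149518 CPM in anti–IL-4Rα.

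Calls in these lists also changed when the libraries that stood apart were left out. In isotype against PBS without isotype replicate 2, 8 of the 25 further replication genes and 7 of the 30 further mitotic genes were called, the latter with a median log2 fold change of 0.23 against 0.33 with all libraries. Of the genes named above, *E2f1*, *Itga6*, *Cd3d*, *Hbegf*, *Cdkn1b*, *Cdk6*, and *Krt17* were then not called (adjusted p = 0.0503 to 0.0988). In anti–IL-4Rα against isotype without the same library, 16 further replication and 29 further mitotic genes fell, whereas *Prdm1*, *Pax6*, *Rbl2*, *E2f1*, *Xbp1*, *Hbegf*, *Egf*, and *Aqp5* were not called (adjusted p = 0.068 to 0.108).

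Without anti–IL-4Rα replicates 1, 4, and 5, with 2 libraries left in that group, *Krt16* (-3.22 ± 0.45, adjusted p = 0.0211) was the only gene of the lists called by edgeR in anti–IL-4Rα against isotype. Of the further genes, 0 of 30 mitotic and 0 of 25 replication genes were then called, with 30 and 22 at an unadjusted p under 0.05, and DESeq2 and voom were not run on these libraries. Their median log2 fold changes were -0.66 and -0.49, against -0.60 and -0.48 with all libraries. With the lacrimal acinar level as a covariate, 27 and 9 of them fell.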

How the data were processed

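RNA from conjunctival tissue of 15 mice (3 groups of 5) was sequenced as polyA-selected, stranded libraries with reads of 90 bases. According to the methods, reads were filtered at a quality score of 20 and aligned to mouse genome B38 in Omicsoft Array Studio with Ensembl release 100 gene models. The methods also state that 2 outlier libraries were found, which the sources used here do not name. The figure legends give fewer than 5 mice for some sequencing panels. All 15 libraries were used here, so any that the study left out are included. The authors deposited 1 table of estimated counts per gene and library for 55487 genes, 33331 of them above 0 in some library. Fractional values were found for 6222 to 8005 genes in each library, so the deposited expected counts were rounded to whole numbers.

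The 19006 genes that reached 10 counts in 5 or more libraries entered 1 edgeR fit of all 15 libraries (edgeR 4.0.16, R 4.3.3; quasi-likelihood F-test, two-sided, TMM factors, group as the only term). The p-values were adjusted by the Benjamini-Hochberg method over all genes tested in a comparison, and called under 0.05. Counts at an unadjusted p under 0.05 are descriptive, and the share of all genes at that threshold is not given. Errors of log2 fold changes are standard errors from the fit, and other errors are SD. Single members were also tested by an exact permutation test over all splits of 10 libraries into 2 groups of 5, two-sided. Levels are CPM after TMM. Levels per kilobase used the union of exons in GENCODE M21 (GRCm38), which held 55227 of the gene IDs and also gave gene coordinates. Library totals ranged from 48622246 to 87745024 counts. Every pair of replicates differed by more than sampling noise.

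Alternatives were upper quartile factors, DESeq2 1.42.0, voom with quality weights (limma 3.58.1), a linear model on log2(FPKM + 1) scaled at the 75th quantile in the manner of the methods, no filter, filterByExpr, fits of 2 groups only, the replicate number as a block, the lacrimal or hair follicle level as a covariate, a fold of at least 1.5, and leaving out each library. Leaving out anti–IL-4Rα replicates 1, 4, and 5, alone or with isotype replicate 2, was added after seeing the data. The fitting code was tested on simulated data.

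The members and lists were chosen with earlier results of these data known. A member is described by library if it was among the 10 with the lowest adjusted p in isotype against PBS or anti–IL-4Rα against isotype and passed, and *Mki67*, *Top2a*, *Pcna*, *Mcm2*, *Cdk1*, and *Ccnb1* in any case. Of other lists, at most 4 genes with the lowest adjusted p in isotype against PBS and the defining markers are named. Single results that this rule would name and that are withheld are not reported here. *Rrm2* by library, *Nusap1*, *Melk*, *Rbl2*, *Cdkn2d*, *Egf*, *Xbp1*, *Prdm1*, and other single genes called only under anti–IL-4Rα are named after their values were seen. Promoter windows are from RefSeq (GRCm38.p6), and the first listed window of a gene was used.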

Additional observations from a re-analysis of the deposited data

Results flagged for a closer look

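In groups of 5 libraries, a level was looked at again where the highest or lowest library lay unusually far from the nearest other library for the range of its group (Dixon's criterion). Chance gives about 1 in 20 groups, or 6.3 of the 126 groups tested, and 12 met the criterion. The members were measured in the same libraries, so these groups are not independent, and no excess over chance can be read from the 12. In the PBS group, replicate 1 stood above the others for *Mcm5* (30.8 CPM, next 27.9), *Mcm7* (48.4 CPM, next 42.3), *Pcna* (78.4 CPM, next 72.4), *Rrm2* (27.2 CPM, next 22.8), and *Bub1* (6.5 CPM, next 5.89). In the anti–IL-4Rα group, replicate 5 stood above the others for *Mcm2* (29.8 CPM, next 27), and replicate 2 for *Rrm2* (31.4 CPM, next 21.6). Anti–IL-4Rα replicate 2 stood below the others for *Cdca8* (11.6 CPM, next 14), *Plk1* (12.4 CPM, next 15.4), *Birc5* (10.6 CPM, next 12.7), *Kif2c* (7.58 CPM, next 9.19), and *Prc1* (21.6 CPM, next 27.1). No isotype group met the criterion.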

How the results depend on the processing

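The direction of all 42 members held under every alternative run in isotype against PBS (median log2 fold change 0.32 to 0.53) and in anti–IL-4Rα against isotype (-0.74 to -0.51), and counts of calls moved. In isotype against PBS, 32 calls (11 replication, 21 mitotic) became 16 (6, 10) in the linear model on log2(FPKM + 1), 20 (7, 13) in a fit of 2 groups only, 18 (6, 12) with the hair follicle covariate, 6 (4, 2) at a fold of at least 1.5, and 13 (5, 8) without anti–IL-4Rα replicates 1, 4, and 5 and isotype replicate 2. It was 42 with the lacrimal covariate, 37 by DESeq2, 34 by voom, 32 with filterByExpr, 29 with upper quartile factors, 28 with no filter, and 24 without anti–IL-4Rα replicates 1, 4, and 5. Over all genes, 1812 were called higher in the main fit, 1165 in the linear model, and 1500 in the fit of 2 groups. With the hair follicle covariate 1273 were called higher, with the lacrimal covariate 2485, and by DESeq2 2466. Leaving out 1 library gave 14 to 36 calls among the members (7 to 14 replication, 7 to 23 mitotic). In anti–IL-4Rα against isotype, 42 calls (15, 27) became 0 (0, 0) by edgeR without anti–IL-4Rα replicates 1, 4, and 5, and 2 (0, 2) without isotype replicate 2 as well. These fits left 2 anti–IL-4Rα libraries. The replication count became 9 in a fit of 2 groups only and 9 with the lacrimal covariate, and 7 at a fold of at least 1.5. Over all genes, 506 were called lower in the fit of 2 groups and 478 with the lacrimal covariate, against 1546 in the main fit. Leaving out 1 library gave 37 to 42 calls (11 to 15 replication, 26 to 27 mitotic). In anti–IL-4Rα against PBS, 0 calls by edgeR (12 at an unadjusted p under 0.05) became 2 by DESeq2, by voom, and with the hair follicle covariate (2 mitotic each), and 6 (2, 4) in a fit of 2 groups only. Leaving out 1 library gave 0 to 4 calls (0 to 1 replication, 0 to 3 mitotic). The cause of these moves was not tested. Fits without some libraries also had fewer of them, and the part of that smaller number was not tested either.

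Replicate numbers are shared by the 3 groups. With the replicate number as a block, 17 members (8 replication, 9 mitotic) were called in isotype against PBS, 42 in anti–IL-4Rα against isotype, and 0 by edgeR in anti–IL-4Rα against PBS. Of all 19006 genes, 1308 were called higher in the first of these comparisons with this block, and 1035 lower in anti–IL-4Rα against isotype. Of 15 pairs of libraries with the same number, 4 had deviations from their group means that correlated at over 0.1 (range -0.385 to 0.454), and 4 of 15 libraries were closest to their own number, so the numbers were not taken to pair the mice. Depth gave at least 126 counts per member and library, so counting error matters for the least abundant members. The spread among the 5 isotype mice, with a median coefficient of variation of 23.2%, limited the precision more widely.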
